A study of Homo sapiens with 12 samples.

Results

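This account follows the mRNAs of 10 amino acid transporters, namely SLC7A5, SLC3A2, SLC7A11, SLC7A1, SLC7A6, SLC1A4, SLC1A5, SLC38A1, SLC38A2 and SLC43A1, through an experiment on olaparib and radiation. All 10 were found by symbol among 60605 genes. They were selected on these same expression values, because SLC7A5 and SLC7A11 were higher in cells given both treatments. The values of these 10 mRNAs in comparisons with the combined treatment are therefore descriptions. Nothing is read from how many of these mRNAs pass a threshold there. Other genes were tested, in lists that were also chosen with earlier results of these data known. The experiment used SBC5, a single established human small cell lung cancer line, labelled wild type in all groups. The combination group received 1 µM olaparib, which blocks the DNA repair enzymes PARP1 and PARP2, and 2 hours later 4 Gy of gamma rays. The radiation group received the solvent dimethyl sulfoxide and 4 Gy, the olaparib group received 1 µM olaparib and no radiation, and the vehicle group received dimethyl sulfoxide and no radiation. Each group had 3 total RNA sequencing libraries from cells collected at 3 days, and the sources do not say whether these came from separate cultures, so p-values measure the spread between libraries, which may be technical.

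Amino acids cross the plasma membrane on carrier proteins of the solute carrier families. SLC7A5 (LAT1) imports large neutral amino acids such as leucine in exchange for glutamine, and SLC7A11 (xCT) imports cystine in exchange for glutamate. Both are light chains that reach the cell surface bound to the shared heavy chain SLC3A2 (CD98hc, 4F2hc). Intracellular leucine and arginine are read by the kinase complex mTORC1, and shortage of amino acids is read by the kinase EIF2AK4 (GCN2), which raises translation of the transcription factor ATF4; SLC7A5 and SLC7A11 are known ATF4 target genes.

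Totals ran from 14.3 to 38.8 in units of 1e+06 estimated counts per library. Olaparib 2, olaparib 3 and radiation 3 stood apart: the summed level of 381 olfactory receptor genes, which this cell type should not use, was 1875, 2079 and 914.5 counts per 1e+06 (CPM) in them and 354.0 to 500.9 CPM in the other 9 libraries. The values below therefore rest on 9 libraries (3 combination, 2 radiation, 1 olaparib and 3 vehicle), and the levels in the 3 libraries set apart are given beside them. Among the 9, the 3 combination libraries had 460.8 to 500.9 CPM of olfactory receptor RNA and 19.4 to 20.6 in units of 1e+06 counts, against 354.0 to 431.7 CPM and 27.0 to 34.1 in the 3 vehicle libraries. The label of the cells was checked against markers. The mRNA of the transcriptional regulator YAP1 was at 84.0 to 124 CPM and that of the vesicle protein SYP at 16.4 to 27.3 CPM over the 9 libraries, whereas the neuroendocrine factor INSM1 had no count in 8 of 9 libraries. The lymphocyte genes CD3E and MS4A1 had no count in 7 of 9 libraries, PTPRC stayed at or below 2.28 CPM and PECAM1 at or below 2.23 CPM. CD68, a lysosomal protein gene counted among the leukocyte markers, was at 78.1 CPM or more in all 9, and the summed leukocyte markers were at 80.4 to 101 CPM in the combination and 80.3 to 97.8 CPM in vehicle. YAP1 fell by 0.41 on the log2 scale in the combination against vehicle (SE 0.0783, edgeR adjusted p = 0.000147), and its sum with POU2F3 was at 84.2 to 94.9 CPM in the combination, 95.0 to 99.8 CPM in radiation, 108 CPM in olaparib and 119 to 124 CPM in vehicle. The summed neuroendocrine markers were at 18 to 22.3 CPM in the combination and 22.7 to 29 CPM in vehicle, and SYP was not called (edgeR adjusted p = 0.0688). The part of these differences in the results below was not tested. In these bulk libraries, fewer cells with an mRNA and less of it per cell cannot be told apart.

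The promoters of 4 members are printed. That of SLC7A5 was taken because its groups separated most clearly. SLC7A1 and SLC38A2 are known targets of the amino acid response whose levels overlapped between combination and vehicle. The SLC1A5 window is the only member window with a match to the ATF4 motif. Each printed sequence runs 5′ to 3′ on the strand of the gene and holds the 250 bases before a RefSeq start in build GRCh38.p14. SLC7A5 lies at chr16:87869508-87869757 on the minus strand, SLC7A1 at chr13:29595689-29595938 on the minus strand, SLC38A2 at chr12:46372774-46373023 on the minus strand, and SLC1A5, for 1 of its 3 starts, at chr19:46784815-46785064 on the minus strand. Capitals mark matches to 3 motifs searched on both strands.
SLC7A5 promoter: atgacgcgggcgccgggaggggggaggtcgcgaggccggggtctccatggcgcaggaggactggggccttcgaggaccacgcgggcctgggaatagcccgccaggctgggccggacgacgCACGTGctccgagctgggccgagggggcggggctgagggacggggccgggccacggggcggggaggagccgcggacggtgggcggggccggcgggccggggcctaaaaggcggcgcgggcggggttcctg
SLC7A1 promoter: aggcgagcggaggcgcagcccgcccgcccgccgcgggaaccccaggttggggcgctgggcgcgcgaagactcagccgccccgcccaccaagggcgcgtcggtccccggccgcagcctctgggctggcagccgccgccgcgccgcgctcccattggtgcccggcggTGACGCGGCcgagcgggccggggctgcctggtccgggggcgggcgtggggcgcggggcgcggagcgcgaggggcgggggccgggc
SLC38A2 promoter: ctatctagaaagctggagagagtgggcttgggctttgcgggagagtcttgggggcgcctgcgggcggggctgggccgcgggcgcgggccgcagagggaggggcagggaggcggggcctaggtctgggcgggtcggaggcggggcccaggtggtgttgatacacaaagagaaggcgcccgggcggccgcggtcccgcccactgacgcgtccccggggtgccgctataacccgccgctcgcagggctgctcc
SLC1A5 promoter: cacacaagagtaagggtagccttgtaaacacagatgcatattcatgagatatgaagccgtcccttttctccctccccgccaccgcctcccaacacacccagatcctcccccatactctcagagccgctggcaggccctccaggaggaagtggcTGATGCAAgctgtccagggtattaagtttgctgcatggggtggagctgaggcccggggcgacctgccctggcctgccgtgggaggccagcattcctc

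The sequence table held 16 such windows for 9 of the 10 members, and 35116 windows in all. The composite motif TGATGNAA, bound by ATF4 with a CEBP partner, was present in 3.14% of all windows. It was in 1 of the 16 member windows, the SLC1A5 window printed, with its first base at position -97. The E-box CACGTG, bound by MYC among others, was in 6.34% of all windows. It was in 3 of the 16 member windows, from 3 members, among them SLC7A5 at position -130. The motif TGACNNNGC, bound by NFE2L2, the regulator of antioxidant genes, was in 10.9% of all windows. It was in 4 of the 16 member windows, from 4 members, among them SLC7A1 at position -85 (TGACGCGGC). The SLC38A2 window held no match to the 3 motifs. Bases after a start were not searched, so motifs there would not have been found for any member. A match is a stretch of letters, not a site shown to be used.

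SLC7A5 (ENSG00000103257.9, chromosome 16) had the clearest separation of the groups. Its level was 20.6, 22.6 and 20.9 CPM in combination libraries 1, 2 and 3, 13.6 and 16.3 CPM in radiation libraries 1 and 2, 9.72 CPM in olaparib library 1, and 9.92, 11.8 and 12.6 CPM in vehicle libraries 1, 2 and 3. Every combination library lay above every other library, and both radiation libraries lay above the vehicle libraries, with the olaparib library lowest. The order of the means was thus combination, radiation, vehicle and olaparib, at 21.4 ± 1.10 (SD, n = 3), 14.9 ± 1.85 (SD, n = 2), 11.4 ± 1.38 (SD, n = 3) and 9.72 CPM (n = 1), and no neighbours in it overlapped. The combination was 1.87-fold vehicle, a log2 change of 0.90 with a standard error (SE) of 0.157, 0.52 (SE 0.175) above radiation and 1.14 (SE 0.233) above olaparib on the log2 scale. With the olfactory receptor level as a covariate in the 9 libraries, the log2 change against vehicle was 0.89 (SE 0.201). The libraries set apart had 13.2 CPM in radiation 3 and 5.69 and 6.25 CPM in olaparib 2 and 3, below every combination library too. The pseudogenes SLC7A5P1 and SLC7A5P2, which could share its reads, had 0 counts in all 9 libraries.

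SLC7A11 (ENSG00000151012.13, chromosome 4) was the lowest of the members per length of transcript and also higher in the combination. It had 5.65, 6.63 and 7.46 CPM in combination libraries 1 to 3, 4.97 and 3.12 CPM in radiation libraries 1 and 2, 4.2 CPM in olaparib library 1 and 4.31, 2.69 and 3.17 CPM in vehicle libraries 1 to 3. The 3 combination libraries lay above the other 6, while radiation, olaparib and vehicle overlapped. The means were 6.58 ± 0.905 CPM in the combination (SD, n = 3) and 3.39 ± 0.832 CPM in vehicle (SD, n = 3), a ratio of 1.95 and a log2 change of 0.96 (SE 0.279). Against radiation (4.04 ± 1.31 CPM; SD, n = 2) the difference was 0.70 (SE 0.314), and against olaparib 0.65 (SE 0.399), both on the log2 scale. The difference from radiation was 1.08 without radiation 1 and 0.38 without radiation 2. With the olfactory receptor covariate in the 9 libraries, the log2 change against vehicle was 1.16 (SE 0.351).

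The separation of SLC7A11 did not extend to the libraries set apart. Olaparib 2 and 3 had 6.41 and 6.60 CPM and radiation 3 had 5.45 CPM, so the olaparib pair lay within the range of the combination. The same libraries had the highest counts of SLC7A11-AS1, an RNA whose gene lies on the opposite strand: 202 and 183 counts in olaparib 2 and 3 and 46 in radiation 3, against 6 to 42 counts in the other 9. The kit marks strand, but no source used here says whether the counting used it, so reads of the pair may not be fully separated. In the combination SLC7A11-AS1 had 42, 29 and 6 counts and in vehicle 29, 17 and 14 (edgeR adjusted p = 0.736). The part of this RNA and of the background in the SLC7A11 values was not tested.

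SLC3A2 (ENSG00000168003.18, chromosome 11), the heavy chain of both carriers, differed little in level between the groups. It had 23.7, 27.7 and 21.8 CPM in the combination, 28.4 and 26.6 CPM in radiation, 24.8 CPM in olaparib and 23.8, 21.6 and 25.9 CPM in vehicle. The combination overlapped vehicle, and the 2 radiation libraries lay just above the vehicle range. The log2 change was 0.04 (SE 0.126) for the combination against vehicle and 0.21 (SE 0.138) for radiation against vehicle. Radiation 3 had 22.8 CPM and olaparib 2 and 3 had 13.5 and 13.3 CPM.

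Taking the light chains relative to the heavy chain removes the scaling of a library. The counts of SLC7A5 over those of SLC3A2 gave 0.868, 0.816 and 0.960 in the combination, 0.480 and 0.610 in radiation, 0.392 in olaparib and 0.417, 0.548 and 0.485 in vehicle. The 3 combination ratios were the highest of all 12 libraries, since the 3 libraries set apart had 0.579 (radiation 3), 0.423 and 0.470 (olaparib 2 and 3). The radiation and vehicle ratios overlapped. For SLC7A11 over SLC3A2, the combination had 0.238, 0.240 and 0.342, radiation 0.175 and 0.117, olaparib 0.170 and vehicle 0.180, 0.124 and 0.122. Here the combination stood above the other 6 of the 9, but radiation 3 had 0.238 and olaparib 2 and 3 had 0.477 and 0.493. A ratio shows unequal difference of its 2 mRNAs and not which of them differed.

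**Figure D1:**
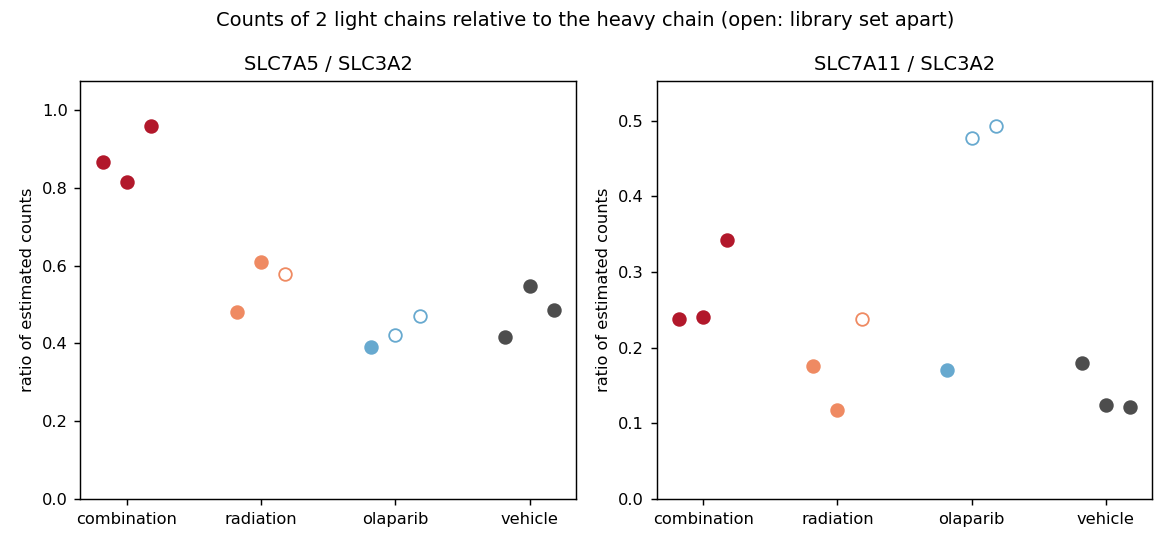
Estimated counts of SLC7A5 (left) and SLC7A11 (right) divided by those of SLC3A2 in each library, by group; filled points are the 9 libraries used and open points the 3 set apart. For SLC7A5 the combination sits at 0.816 to 0.960, above all other points; for SLC7A11 the open olaparib points, at 0.477 and 0.493, lie highest.

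Among the carriers of cationic amino acids, SLC7A1 (ENSG00000139514.13, chromosome 13), which imports arginine and lysine, overlapped between combination and vehicle. Its values were 70.6, 67.8 and 66.7 CPM in the combination, 60.5 and 57.3 CPM in radiation, 50.2 CPM in olaparib and 54.0, 51.4 and 69.4 CPM in vehicle. The combination lay above radiation and olaparib, but vehicle 3 lay within its range. The libraries set apart were lower, with 48 CPM in radiation 3 and 24.7 and 30.1 CPM in olaparib 2 and 3. The log2 change was 0.23 (SE 0.0936) against vehicle, 0.21 (SE 0.105) against radiation and 0.45 (SE 0.135) against olaparib. SLC7A6 (ENSG00000103064.15, chromosome 16), a light chain that exchanges cationic for neutral amino acids, had 26.4, 21.5 and 16.5 CPM in the combination, 21.9 and 20.6 CPM in radiation, 17.1 CPM in olaparib and 27.5, 18.7 and 17.8 CPM in vehicle. Combination, radiation and vehicle overlapped, while the olaparib library lay below radiation and vehicle, and the log2 change of the combination against vehicle was 0.01 (SE 0.163). Radiation 3 had 14.5 CPM and olaparib 2 and 3 had 12 and 14 CPM. Its neighbour SLC7A6OS, whose reads could be shared with it, averaged 37.8 CPM in the combination and 34.5 CPM in vehicle (edgeR adjusted p = 0.752).

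Of the 2 carriers of small neutral amino acids of the SLC1 family, SLC1A4 lay apart from vehicle in the combination and SLC1A5 did not. SLC1A4 (ENSG00000115902.11, chromosome 2), which carries alanine, serine and cysteine, had 9.69, 11.9 and 9.07 CPM in the combination, 8.37 and 6.68 CPM in radiation, 6.23 CPM in olaparib and 6.90, 7.09 and 7.97 CPM in vehicle. The combination lay above the other 6 libraries, and radiation overlapped vehicle, as did olaparib 2 and 3 with 7.17 and 7.76 CPM; radiation 3 had 8.3 CPM. Its log2 change was 0.48 (SE 0.208) against vehicle, 0.44 (SE 0.235) against radiation and 0.72 (SE 0.304) against olaparib. SLC1A5 (ENSG00000105281.12, chromosome 19), the glutamine carrier ASCT2, had 7.74, 9.10 and 6.03 CPM in the combination, 7 and 6.35 CPM in radiation, 6.33 CPM in olaparib and 6.66, 4.37 and 5.63 CPM in vehicle. Combination 3 lay within the vehicle range, and the log2 change was 0.46 (SE 0.237). Radiation 3 had 4.39 CPM and olaparib 2 and 3 had 2.35 and 4.77 CPM.

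The sodium-coupled glutamine and alanine carriers were the most abundant members. SLC38A1 (ENSG00000111371.16, chromosome 12) had 119, 143 and 129 CPM in the combination, 119 and 108 CPM in radiation, 123 CPM in olaparib and 107, 111 and 116 CPM in vehicle. The combination lay above vehicle but not above radiation 1 or olaparib 1, with a log2 change of 0.23 (SE 0.0784) against vehicle. SLC38A2 (ENSG00000134294.14, chromosome 12), another known target of the amino acid response, had 294, 266 and 282 CPM in the combination, 282 and 270 CPM in radiation, 281 CPM in olaparib and 265, 258 and 285 CPM in vehicle. All 4 groups overlapped, and the log2 change of the combination against vehicle was 0.06 (SE 0.0681). Its antisense RNA SLC38A2-AS1 had 0 to 10 counts in the 9 libraries. Of the libraries set apart, olaparib 2 and 3 had 67.4 and 58.8 CPM of SLC38A1 and 138 and 123 CPM of SLC38A2, the lowest of all 12, and radiation 3 had 101 and 209 CPM. SLC43A1 (ENSG00000149150.9, chromosome 11), the leucine facilitator LAT3, had 5.02, 4.93 and 4.13 CPM in the combination, 5.90 and 3.71 CPM in radiation, 3.13 CPM in olaparib and 2.51, 2.82 and 4.45 CPM in vehicle. Combination 3 lay within the vehicle range, and the log2 change was 0.52 (SE 0.300). Olaparib 2 had 4.63 CPM, within the range of the combination, and olaparib 3 and radiation 3 had 2.29 and 2.55 CPM.

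**Figure D2:**
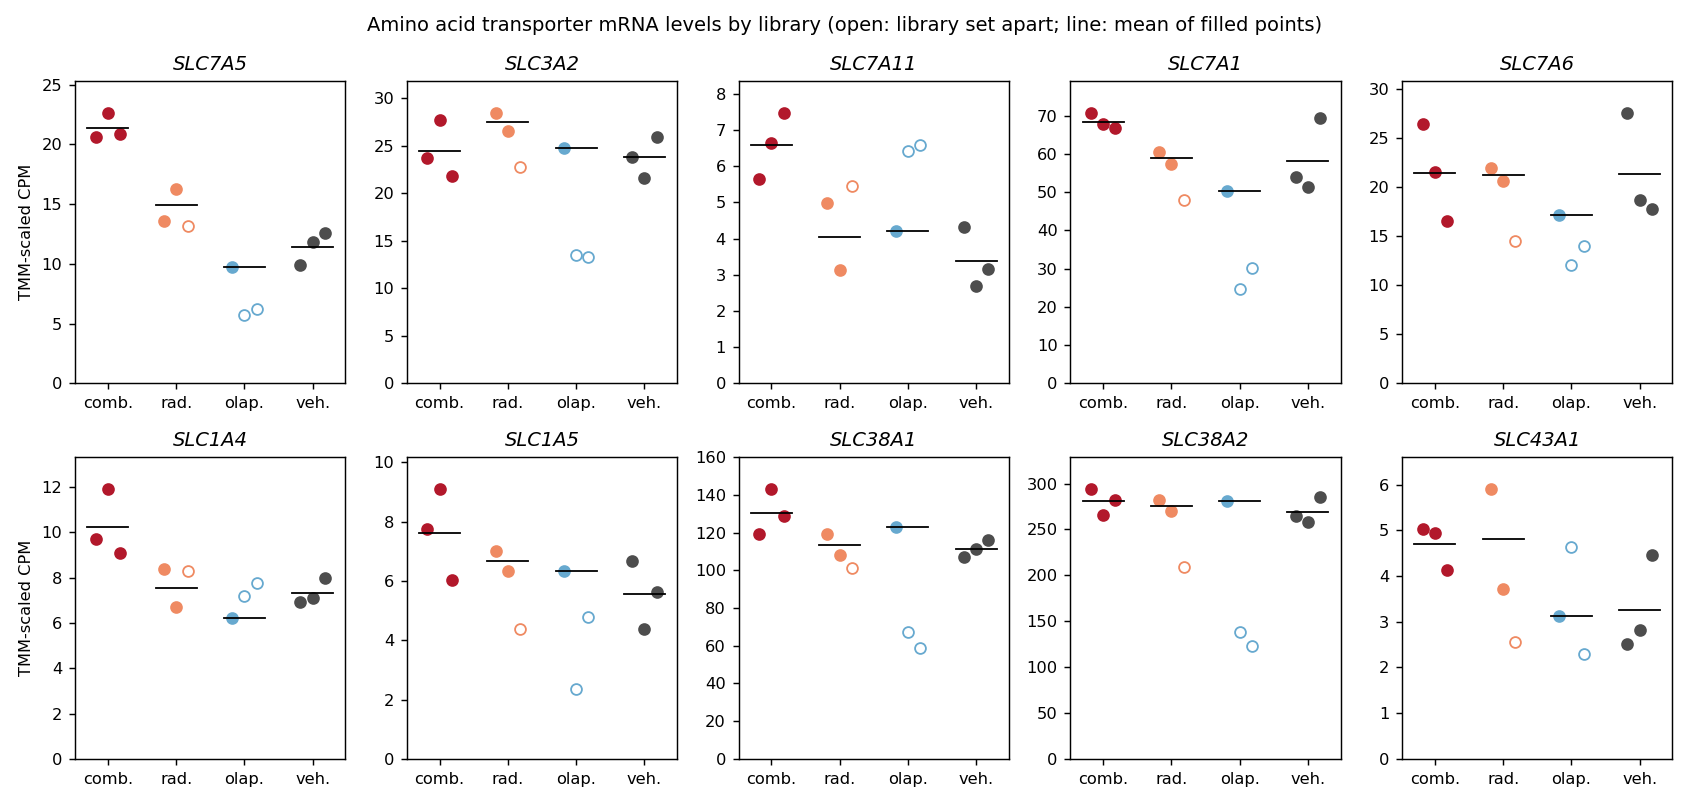
Level of each transporter mRNA in CPM after TMM scaling, by library and group (combination, radiation, olaparib, vehicle); filled points are the 9 libraries used, open points the 3 set apart, and lines the means of the filled points. SLC7A5, SLC7A11 and SLC1A4 have all 3 combination points above every other filled point.

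Per kilobase of merged exons in GENCODE 29, the order of the members by level was nearly the same in the combination and in vehicle. In the combination, SLC38A2 had 42.6 CPM per kilobase, followed by SLC38A1 at 13, SLC7A1 at 8.89, SLC3A2 at 4.71 and SLC7A5 at 4.51 CPM per kilobase. In vehicle, the same scale gave 40.9 for SLC38A2, 11.1 for SLC38A1, 7.57 for SLC7A1, 4.6 for SLC3A2, 2.81 for SLC7A6 and 2.40 CPM per kilobase for SLC7A5. SLC7A5 thus stood next to SLC3A2 in the combination and below SLC7A6 in vehicle. SLC7A11 was lowest in both, at 0.682 in the combination and 0.351 CPM per kilobase in vehicle.

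For the combination against vehicle, all 10 log2 changes were above 0, with a median of 0.35, where the median of all 30967 genes tested was 0.02. In 4 members (SLC7A5, SLC7A11, SLC1A4 and SLC38A1) every combination library lay above every vehicle library, as in 9.15% of all genes. At an adjusted p under 0.05 in edgeR, 2 members, SLC7A5 and SLC7A11, were higher and none was lower, beside 4.80% of all genes called in either direction and 1.53% called higher; since the members were selected on these values, nothing is read from that count. Calls over all genes were 475 higher and 1010 lower, and 2275 higher and 319 lower when library size alone set the scale, which moved the median of all genes to 0.22. On that scale the change was 1.10 for SLC7A5 and 1.16 for SLC7A11. Between combination and radiation, 8 of 10 members were above 0 (median 0.20, against 0.03 for all genes). Of these, 4, namely SLC7A5, SLC7A11, SLC7A1 and SLC1A4, lay above without overlap (12.2% of all genes). In edgeR 0 of the 10 were past the threshold over radiation, beside 0.568% of all genes called. Between combination and olaparib, 8 of 10 were above 0 (median 0.39, against 0.06 for all genes), 5 lay above without overlap (24.0% of all genes) and 1, SLC7A5, was past the threshold, beside 1.95% of all genes; it was selected on its combination values, and nothing is read from that count either.

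Radiation alone could be tested, since the members were not listed for it, although the vehicle libraries took part in their choice. None of the 10 members passed an adjusted p of 0.05 in edgeR's quasi-likelihood test with Benjamini-Hochberg adjustment, beside 1.10% of all genes; 1 member was under an unadjusted p of 0.05, and DESeq2 called 0 members. SLC7A5 came nearest, with a log2 change of 0.38 (SE 0.173, unadjusted p = 0.0305, edgeR adjusted p = 0.435). Both of its radiation libraries lay above all 3 vehicle libraries, which was so for 2 members, SLC7A5 and SLC3A2, and for 11.7% of all genes. SLC43A1 had 0.56 (SE 0.328, edgeR adjusted p = 0.624), SLC1A5 0.27 (SE 0.262) and SLC7A11 0.26 (SE 0.311). Leaving out 1 library moved SLC43A1 between 0.18 and 0.87 and SLC1A5 between 0.12 and 0.42. SLC7A1, SLC1A4, SLC38A1 and SLC38A2 lay between 0.02 and 0.04, and SLC7A6 at -0.0049. The median of the members was 0.12 and that of all genes -0.03. With all 12 libraries in the fit the change of SLC7A5 was 0.33 (SE 0.215, edgeR adjusted p = 0.949). In simulated counts at these depths, 18.5% of genes with a log2 change of 0.5 and 69.5% of those with 1 were recovered in this comparison.

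For olaparib alone, none of the 10 members passed the test either (edgeR adjusted p = 1 for each), beside 0.0678% of all genes called; 0 were under an unadjusted p of 0.05 and DESeq2 called 0. This comparison had 1 olaparib library, assumed to vary like the libraries of the other groups. Simulated counts gave a recovery of 5% at a log2 change of 0.5 and of 57% at 1. The log2 change was -0.24 (SE 0.224) for SLC7A5, 0.31 (SE 0.383) for SLC7A11, -0.21 (SE 0.133) for SLC7A1, -0.32 (SE 0.232) for SLC7A6 and 0.14 (SE 0.109) for SLC38A1. The olaparib library lay below every vehicle library for SLC7A5, SLC7A1, SLC7A6 and SLC1A4, and above them for SLC38A1; over all genes these shares were 21.1% and 24.4%. The median of the members was -7e-04 and that of all genes -0.02. With all 12 libraries, the change was -0.66 for SLC7A5 (SE 0.217, edgeR adjusted p = 0.131), -0.73 for SLC7A1 (SE 0.244, edgeR adjusted p = 0.131) and 0.76 for SLC7A11 (SE 0.303, edgeR adjusted p = 0.146). The olfactory receptor level of olaparib 2 and 3 stands above, and its part in these values was not tested.

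**Figure D3:**
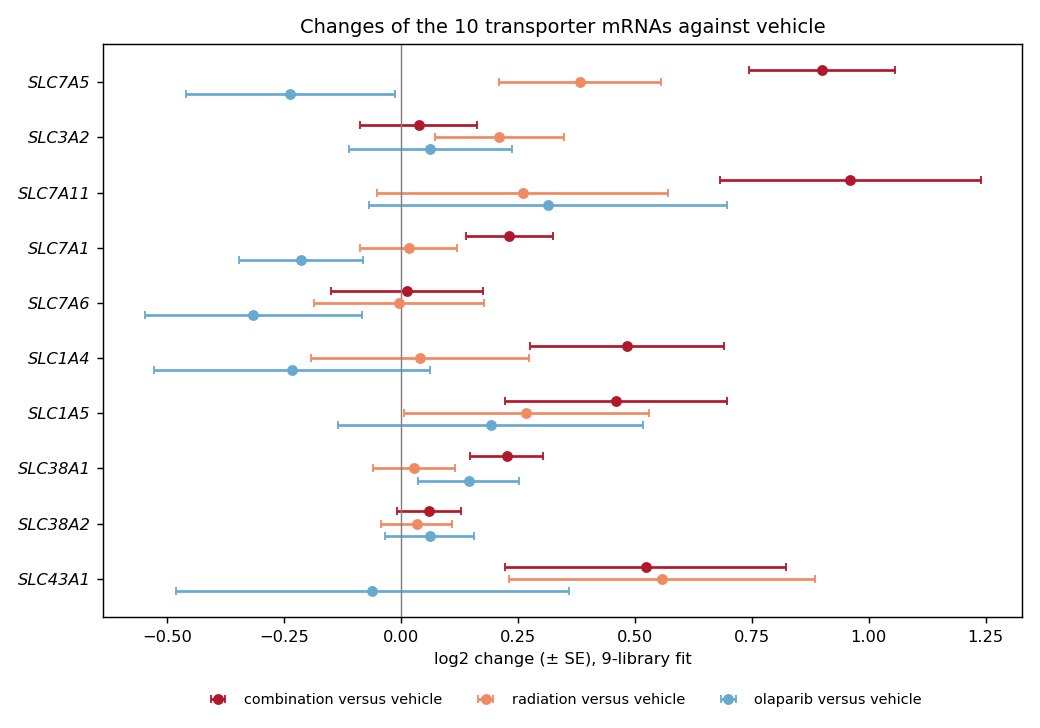
Log2 change of the 10 transporter mRNAs against vehicle in the combination, radiation and olaparib groups, from the 9-library edgeR fit; bars are 1 SE either side. In the combination SLC7A5 and SLC7A11 lie at 0.90 and 0.96; the 3 comparisons share the vehicle libraries.

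The other genes of amino acid supply were taken as lists, which were chosen with earlier results of these data known. Of 25 genes of the response through EIF2AK4 and ATF4, 8 rose and none fell in the combination against vehicle (median log2 change 0.26), where 1.53% of all genes were called higher. ATF3, a stress-induced transcription factor, rose to 8.40 CPM in the combination, against 2.42 CPM in vehicle (log2 change 1.79, SE 0.274, edgeR adjusted p = 1.53e-06). PSAT1, a serine synthesis enzyme, averaged 14.1 CPM in the combination and 6.49 CPM in vehicle (1.13, SE 0.193, edgeR adjusted p = 1.84e-05). STC2, a secreted glycoprotein, averaged 103 CPM in the combination and 53.1 CPM in vehicle (0.95, SE 0.0853, edgeR adjusted p = 4.49e-14). CEBPG, a dimer partner of ATF4, averaged 43.1 CPM in the combination and 22.5 CPM in vehicle (0.93, SE 0.115, edgeR adjusted p = 6.76e-09). ATF4 mRNA itself, which the pathway controls through translation, was at 156 CPM in the combination and 143 CPM in vehicle (0.12, SE 0.0771, edgeR adjusted p = 0.546), and EIF2AK4 had a log2 change of -0.24 (SE 0.0847, edgeR adjusted p = 0.104). With all 12 libraries in the fit, 0 of these 25 genes were called, and with the olfactory receptor covariate added to them 7 were. With that covariate in the 9 libraries, 8 of the 25 were called higher and 1 lower. Among all 30967 genes that fit called 302 higher and 500 lower.

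Of the same 25 genes, 7 rose and none fell with radiation against vehicle (median 0.17), where 0.420% of all genes were called higher. Over all genes 130 were called higher and 210 lower, and with library size alone 560 and 125. CEBPG averaged 42.8 CPM in radiation and 22.5 CPM in vehicle (log2 change 0.92, SE 0.125, edgeR adjusted p = 5.13e-07), close to its level in the combination. ASNS, asparagine synthetase, averaged 88.0 CPM in radiation and 53.6 CPM in vehicle (0.71, SE 0.112, edgeR adjusted p = 0.00037). DDIT3, the factor CHOP, averaged 83.2 CPM in radiation and 51.3 CPM in vehicle (0.70, SE 0.101, edgeR adjusted p = 1.82e-06). ATF3 averaged 6.37 CPM in radiation and 2.42 CPM in vehicle (1.39, SE 0.295, edgeR adjusted p = 0.00275). The 2 comparisons share the vehicle libraries. The count was 3 without radiation 1, 4 without vehicle 1 or without vehicle 2, and 0 with all 12 libraries, in which the log2 change of CEBPG was 0.80 and that of ASNS 0.65. The ATF3 call was lost without vehicle 2 (edgeR adjusted p = 0.0527), and without radiation 1 its log2 change was 1.26. With the olfactory receptor covariate in the 9 libraries, 8 of the 25 were called higher and 1 lower with radiation. Among all 30967 genes that fit called 198 higher and 326 lower.

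None of the 25 was called by edgeR in olaparib against vehicle, and 1 was under an unadjusted p of 0.05. Between combination and radiation, STC2 was the only one of the 25 called, beside 0.568% of all genes called and 0.142% called higher. It had 105, 103 and 99.5 CPM in the combination and 72.3 and 65.9 CPM in radiation, without overlap (log2 change 0.57, SE 0.0957, edgeR adjusted p = 0.000153). Between combination and olaparib 4 of 25 rose, namely ATF3, STC2, CEBPG and ASNS, with log2 changes of 1.41, 0.96, 0.82 and 0.77, beside 0.417% of all genes called higher. With all 12 libraries these were 1.23, 1.5, 1.51 and 1.28, with edgeR adjusted p of 0.128, 0.127, 0.128 and 0.128.

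Other carriers of the plasma membrane and lysosome gave no such calls with TMM scaling. Of 41 further transporters of the plasma membrane and lysosome, 31 had enough counts to test, and none passed in any of the 5 comparisons, with 0.346 as the smallest edgeR adjusted p for the combination against vehicle and 0.505 for radiation against vehicle. Under an unadjusted p of 0.05 there were 1 and 2 of them in these comparisons, and DESeq2 called 0 in both. With library size alone as the scale, edgeR called 1 of them higher in the combination against vehicle and 0 lower. SLC7A8 (LAT2), another leucine exchanger that pairs with SLC3A2, was at 0.885 CPM in the combination and 0.396 CPM in vehicle (log2 change 1.16, SE 0.809, edgeR adjusted p = 0.603). SLC43A2 (LAT4) was at 4.56 CPM in the combination and 6.06 CPM in vehicle (-0.41, SE 0.256, edgeR adjusted p = 0.521). CTNS, which exports cystine from lysosomes, was at 2.87 CPM in the combination and 2.66 CPM in vehicle (0.11, SE 0.362, edgeR adjusted p = 0.961).

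Of 12 mitochondrial amino acid carriers, 11 were tested, and 3 fell and none rose in the combination against vehicle (median -0.06), beside 3.26% of all genes called lower. The aspartate and glutamate exchanger SLC25A13 (citrin) had 32.9, 34.0 and 31.4 CPM in the combination and 45.3, 55.0 and 46.9 CPM in vehicle, without overlap. Its log2 change was -0.58 (SE 0.103, edgeR adjusted p = 3.56e-05), and with radiation, where 0.678% of all genes were called lower, it was -0.42 (SE 0.115, edgeR adjusted p = 0.0414). The radiation call was lost without combination 3, radiation 1, radiation 2, olaparib 1 or vehicle 2. The edgeR adjusted p were then 0.0503, 0.287, 0.16, 0.0574 and 0.347. This SLC25A13 call was also lost with DESeq2 size factors (0.0587), library size alone (0.156) and the compared groups alone (0.104). Its paralogue SLC25A12 fell by 0.40 (SE 0.113, edgeR adjusted p = 0.0205), and the mitochondrial serine carrier SFXN1 fell by 0.33 (SE 0.0790, edgeR adjusted p = 0.00357), both on the log2 scale in the combination against vehicle. With library size alone as the scale neither was called, at -0.20 and -0.13. The SLC25A12 call was also lost without combination 1, combination 3, vehicle 2 or vehicle 3 (adjusted p 0.194, 0.125, 0.188 and 0.0565), and with the olfactory receptor covariate 1 of the 11 carriers was called lower.

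**Figure D4:**
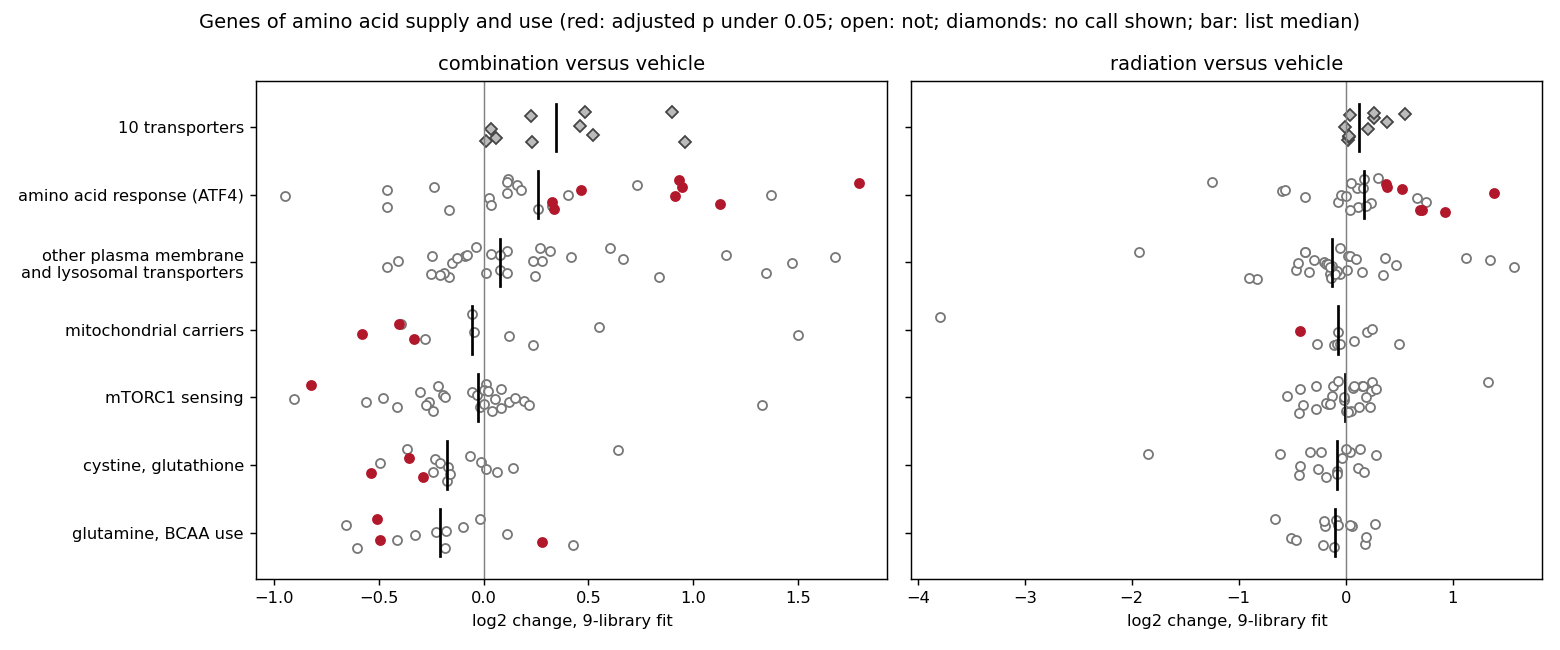
Log2 change of each tested gene of 7 lists in the combination (left) and radiation (right) against vehicle, 9-library fit; red points passed an edgeR adjusted p of 0.05, open points did not, diamonds are the 10 transporters with no call shown, and bars are list medians. The red points of the amino acid response list, 8 on the left and 7 on the right, all lie above 0; the horizontal scales of the panels differ.

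Of 28 genes of amino acid sensing by mTORC1, 1 fell and none rose in the combination against vehicle (median -0.02), a share near the 3.26% of all genes called lower. The gene that fell was LAMTOR5, a subunit of the lysosomal Ragulator scaffold, with 31.7, 27.3 and 31.0 CPM in the combination and 52.6, 49.0 and 57.2 CPM in vehicle. The groups did not overlap, and the log2 change was -0.82 (SE 0.107, edgeR adjusted p = 3.95e-08). With library size alone 6 genes of the list were called higher and 1 lower. MTOR was at 83.2 CPM in the combination and 86.5 CPM in vehicle (-0.06, SE 0.0830, edgeR adjusted p = 0.882). With radiation against vehicle edgeR called 0 genes of the list and DESeq2 0, with 4 under an unadjusted p of 0.05. In the combination against olaparib 1, LAMTOR5 and its fellow subunit LAMTOR2 fell, by 0.85 and 0.95 on the log2 scale, beside 1.54% of all genes called lower. Olaparib 2 and 3 lay below every combination library instead, with 18.8 and 24.8 CPM of LAMTOR5 and 5.88 and 5.24 CPM of LAMTOR2, and with all 12 libraries the log2 changes were -0.12 and -0.23 (edgeR adjusted p = 0.808 and 0.666).

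Of 17 genes of cystine use, glutathione and NFE2L2, the uses of the cystine that SLC7A11 imports, 3 fell and none rose in the combination against vehicle (median -0.17), beside 3.26% of all genes called lower; with the olfactory receptor covariate in the 9 libraries 0 were called. GPX4, the peroxidase that reduces lipid peroxides with glutathione, averaged 23.7 CPM in the combination and 34.4 CPM in vehicle (log2 change -0.54, SE 0.120, edgeR adjusted p = 0.00152). NFE2L2 had 178, 144 and 170 CPM in the combination and 198, 204 and 199 CPM in vehicle (-0.29, SE 0.0740, edgeR adjusted p = 0.0076). Its target NQO1 averaged 29.3 CPM in the combination and 37.5 CPM in vehicle (-0.36, SE 0.109, edgeR adjusted p = 0.0374). With library size alone as the scale none of these 3 was called, with adjusted p of 0.0652, 0.56 and 0.494. GPX4 was not called without vehicle 3 (adjusted p 0.0952), and NFE2L2 not without combination 2 or vehicle 2 (0.133 and 0.0562). NQO1 was lost without combination 1, vehicle 1, vehicle 2 or vehicle 3 (0.291, 0.0709, 0.0936 and 0.148), with limma-voom (0.0814) and with the compared groups alone (0.0502).

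Of 14 genes of glutamine and branched-chain amino acid use, 1 rose and 2 fell in the combination against vehicle (median -0.21), beside 1.53% of all genes called higher and 3.26% called lower. With library size alone 3 were called higher and 0 lower. BCAT1, the cytosolic transaminase of the branched-chain amino acids that SLC7A5 imports, averaged 182 CPM in the combination and 151 CPM in vehicle (log2 change 0.28, SE 0.0722, edgeR adjusted p = 0.00944). GOT2, the mitochondrial aspartate transaminase, averaged 31.8 CPM in the combination and 45.2 CPM in vehicle (-0.51, SE 0.113, edgeR adjusted p = 0.00199). MYC, a transcription factor known to drive SLC7A5 and SLC1A5, averaged 16.5 CPM in the combination and 23.2 CPM in vehicle (-0.49, SE 0.139, edgeR adjusted p = 0.0200). The MYC call was lost without combination 3, vehicle 1 or vehicle 3 (adjusted p 0.126, 0.0932 and 0.128) and with library size alone (0.223), where GOT2 was lost too (0.0806). The BCAT1 call was lost without combination 3, vehicle 1 or vehicle 2 (0.0956, 0.063 and 0.0759). With the olfactory receptor covariate in the 9 libraries GOT2 and MYC were lost (edgeR adjusted p = 0.301 and 0.177). On that fit 1 gene of the list was called higher and 0 lower.

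The genes most like SLC7A5 were found by the root mean square difference of log2 CPM, each gene less its own mean over the 9 libraries, among 11034 genes of at least 5 CPM. They were STC2 (0.122), ZNF432 (0.136), CARS1 (0.145), TNIK (0.149) and TFRC (0.159), where the median gene differed by 0.483. CARS1, the cytosolic cysteinyl-tRNA synthetase, averaged 60.2 CPM in the combination, 50.1 in radiation, 34.2 in olaparib and 31.3 CPM in vehicle. TFRC, the transferrin receptor, averaged 227 CPM in the combination, 190 in radiation, 106 in olaparib and 109 CPM in vehicle. Among the other members SLC1A4 was nearest to SLC7A5 (0.256, rank 109), then SLC7A1 (0.319, rank 505), and SLC7A6 was farthest of those compared (0.490, rank 5832). For SLC7A11 the nearest were PRH1 (0.167), ZNF48 (0.184), CASZ1 (0.206), EXPH5 (0.219) and CFAP44 (0.223), with a median of 0.516; the genes nearest to SLC7A5 were not among them. The measure follows all 9 libraries and their scaling, and it is a description with no test.

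**Figure D5:**
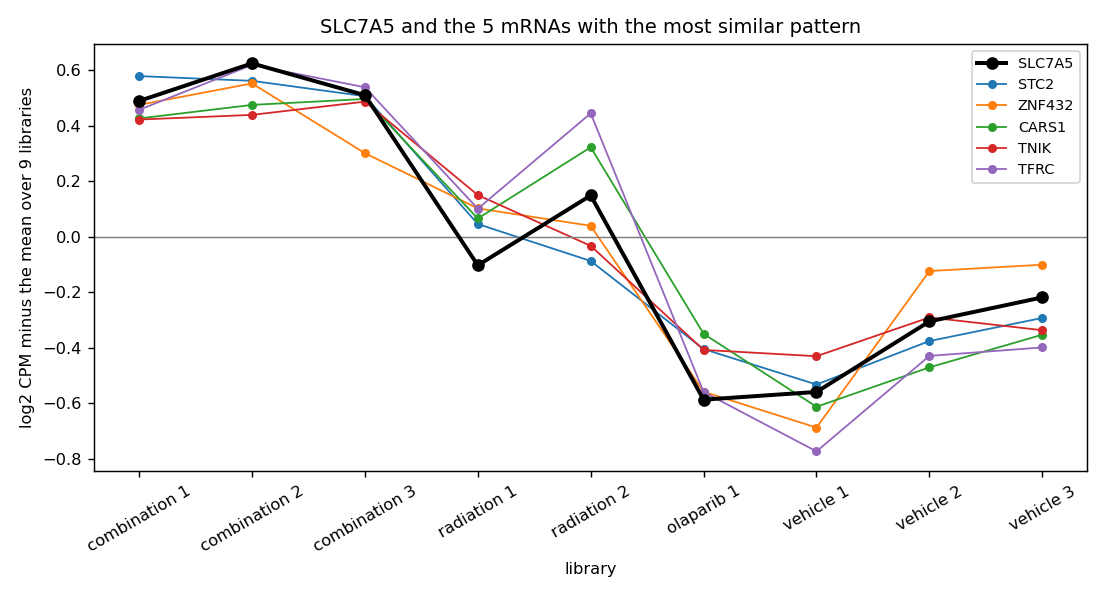
Log2 CPM of SLC7A5 (black) and of the 5 mRNAs with the most similar pattern, each less its own mean over the 9 libraries, by library; lines only join the points of a gene. All 6 mRNAs are above their mean in the 3 combination libraries and below it in olaparib 1 and the 3 vehicle libraries.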

How the data were processed

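RNA of 12 libraries was sequenced by the submitters from stranded total RNA kits. The authors deposited estimated counts per gene, made with kallisto 0.46.1 and analysed with DESeq2 per the submitters' processing notes; of the transcriptome release, genome build and strand setting nothing is said in those notes or the labels. Of these deposited expected counts, 68.8% were whole to within 1e-06. Counts on 44 pseudoautosomal Y entries were added to their X copies, which left 60605 genes, of which 60463 had a symbol, and values were rounded.

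Libraries were grouped by their labels. Olaparib 2, olaparib 3 and radiation 3 were kept apart because their summed olfactory receptor level was over 1.5 times the median. The other 9 were fitted together in R 4.3.3 with edgeR 4.0.16: default count filter (30967 genes kept), TMM scaling and a group mean each. The robust quasi-likelihood test was used, with Benjamini-Hochberg adjusted p under 0.05 over the whole table as a call. Each SE is the log2 change over the square root of F. CPM values are TMM-scaled; those of libraries kept apart come from a scaling of all 12, multiplied by 0.917, the median ratio of both scales. DESeq2 1.42.0 and limma 3.58.1 (voom) were alternatives, beside other scalings, count filters, covariates and left-out libraries. The steps were tested on simulated data with 200 changed genes of at least 3 CPM. The main fit did not pair libraries by replicate number. Deviations of same-numbered libraries from their group means correlated at -0.0463 to 0.00584. All genes weighed equally in these correlations, whatever their counts, so a weak pairing could be missed.

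The members and gene lists were chosen with earlier results of these data known. Named genes are all members, the partner genes, up to 4 called genes with the largest change per list and comparison (at least 1 CPM in the higher group), 8 key genes whatever their values, and the 5 genes most like SLC7A5 and SLC7A11. Promoters come from RefSeq (GRCh38.p14), and depth in counts limits precision for members at a few CPM; SDs and SEs cover the spread between libraries.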

Additional observations from a re-analysis of the deposited data

Results flagged for a closer look

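For 3 members, olaparib and its addition to radiation went in opposite directions in every one of the 9 libraries compared, a difference that was not itself tested. SLC7A5 was lower in olaparib 1 than in every vehicle library, with a log2 change of -0.24, and higher in every combination library than in both radiation libraries, with 0.52. For SLC7A1 the same pair of changes was -0.21 and 0.21, and for SLC1A4 it was -0.23 and 0.44. The olaparib value rests on 1 library, and for SLC1A4 olaparib 2 and 3, at 7.17 and 7.76 CPM, lay within the vehicle range. Both patterns together were found in 2.89% of all genes, and the members were selected on the combination's values.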

How the results depend on the processing

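No member was called for radiation or olaparib against vehicle under any alternative run. The smallest adjusted p over these runs, by edgeR, DESeq2 or limma-voom, was 0.131 in each comparison. The number called for the combination against vehicle, 2 as reported, was 6 with library size alone and 0 with all 12 libraries or with all 12 and the replicate block; leaving out 1 library gave 1 to 3, with SLC7A11 lost without combination 2, combination 3, vehicle 2 or vehicle 3. The members were selected on these values, so the counts that involve the combination say nothing of stability. For the combination against olaparib, 1 as reported, it was 2 with library size alone, DESeq2, limma-voom, the compared groups alone, or the olfactory receptor covariate in all 12 or in the 9 libraries (the last added after seeing the data), 0 with the replicate block in all 12, and 1 to 2 leaving out 1 library. Among all genes, 1485 of 30967 were called for the combination against vehicle as reported and 2594 with library size alone. All 12 libraries gave 1 of 31858, and 0 with the block added. For the combination against olaparib, the covariate in all 12 gave 376 genes and the block in all 12 gave 1. The 9-library fits of that comparison rest on 1 olaparib library. The main fit did not pair libraries by replicate number, and the block in the 9 libraries changed no count of members called.

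Some directions reversed. For radiation against vehicle, SLC7A6 was 0.0125 with DESeq2 size factors, 0.0115 with DESeq2, 0.10 with library size alone, 0.003 with the stricter filter and 0.0426 with limma-voom. With all 12 libraries SLC7A1, SLC38A1 and SLC38A2 were -0.0676, -0.0176 and -0.0809, and with the replicate block added -0.0738, -0.0303 and -0.10. Leaving out 1 library moved SLC7A11 between -0.12 and 0.57, SLC7A1 between -0.068 and 0.16, SLC7A6 between -0.12 and 0.22, SLC1A4 between -0.13 and 0.21, SLC38A1 between -0.0503 and 0.11 and SLC38A2 between -3e-04 and 0.0779. For olaparib against vehicle, SLC43A1 was 0.0138 with library size alone, 0.039 with all 12 and 0.32 with their covariate. With all 12 libraries SLC3A2, SLC1A5, SLC38A1 and SLC38A2 were -0.46, -0.30, -0.42 and -0.57, and with the replicate block added -0.50, -0.33, -0.46 and -0.65. Leaving out 1 library moved SLC3A2 between -0.004 and 0.13 and SLC43A1 between -0.22 and 0.23. The cause was not tested; leaving out olaparib 1 gave no olaparib comparison.

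Over all genes, a fit of all 12 libraries called 1 gene for the combination and 0 for radiation against vehicle, so no call of the other lists held there. Of the mTORC1 genes DESeq2 called 3 and limma-voom 2 for the combination against vehicle, where edgeR called 1; of the cystine and glutathione genes each called 1 for radiation, where edgeR called 0; and 12 genes of the amino acid response were called for the combination with library size alone, where 8 were as reported.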
